A study of Mus musculus with 7 samples.

Results

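The regions described here were the 1572 positions of the palate Shox2 list at E12.5 (a stage in days of embryonic development) that lay inside a limb Pbx peak and inside no limb Shox2 peak of the same stage. They made up 10.4% of the 15091 palate positions. The 3 lists used came from chromatin immunoprecipitation and sequencing (ChIP-seq) of freshly dissected mouse embryo tissue. Shox2 was precipitated through an HA epitope tag (sample type Shox2-HA, anti-HA antibody) from E12.5 palate and from E12.5 limb, and Pbx was precipitated with an anti-Pbx antibody from E12.5 limb. The labels name no strain, no number of pooled embryos and no genotype for the Pbx sample. The other 4 of the 7 libraries (Shox2-HA in E13.5 limb and in mixed limb and palate, and as controls an input and anti-HA on untagged Shox2+/+ tissue) were not analysed here.

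Shox2 is a homeodomain transcription factor that is required for growth of the proximal limb skeleton and of the anterior palate. Pbx proteins are homeodomain factors of the TALE class that often bind DNA as partners of other homeodomain proteins, and Pbx genes are needed for both limb patterning and closure of the lip and palate. The mesenchyme of the palatal shelves comes largely from cranial neural crest, whereas that of the limb bud comes from lateral plate mesoderm. Pbx was profiled in the limb only. The positions therefore mark places where Shox2 was listed in palate and Pbx in limb, and whether Pbx occupied them in palate was not measured.

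Each group had 1 library and the lists carried no heights, scores or read counts, so no value has a replicate error and no test between tissues or between classes of positions was made. The lists held 33915 limb Pbx peaks (median width 897 bp), 33915 limb Shox2 peaks (median 261 bp) and palate positions of 1 bp. Depth is unknown, and absence of a position from a list does not show that the site was unbound. Peak lists hold no expression, so the tissue labels could not be checked against marker genes. Intervals in parentheses are 95% Wilson intervals for shares and exact binomial intervals for medians. They treat positions as independent and cover counting error only. No mm9 sequence or annotation was used here, so the regions are given by mm9 position (1-based) without genes or sequences.

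The 1572 positions were 12.1% of the 12941 palate positions outside every limb Shox2 peak, called palate-only below (interval 11.6 to 12.7%). Of all palate positions 15.6% lay in a limb Pbx peak. These shares describe the rule that chose the positions and support nothing by themselves. The 1572 are called palate-only Pbx positions below. They were the larger part of palate Shox2 on limb Pbx: 1572 of 2354 positions (66.8%) were outside limb Shox2 peaks, and the other 782 were in all 3 lists.

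The palate-only Pbx positions lay toward the middle of the limb Pbx peaks, a property the rule did not use. Their median distance to the centre of the Pbx peak was 162 bp (interval 150 to 179 bp, quartiles 72 and 330 bp), in peaks whose median width was 1173.5 bp. In the central 50% of the peak's length lay 1221 of 1572 positions (77.7%, 75.5 to 79.7%), and 567 (36.1%) lay in the central 20%. Only 65 positions (4.13%) lay in the outer 20%. Of the 1572, 761 positions lay on the lower-coordinate side of the centre and 811 at or above it. With Pbx peaks set to 200 bp around their centre 535 positions remained, and 51.6% of them lay in the central 50% of that width, so within this middle stretch the positions were spread nearly evenly.

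**Figure D1:**
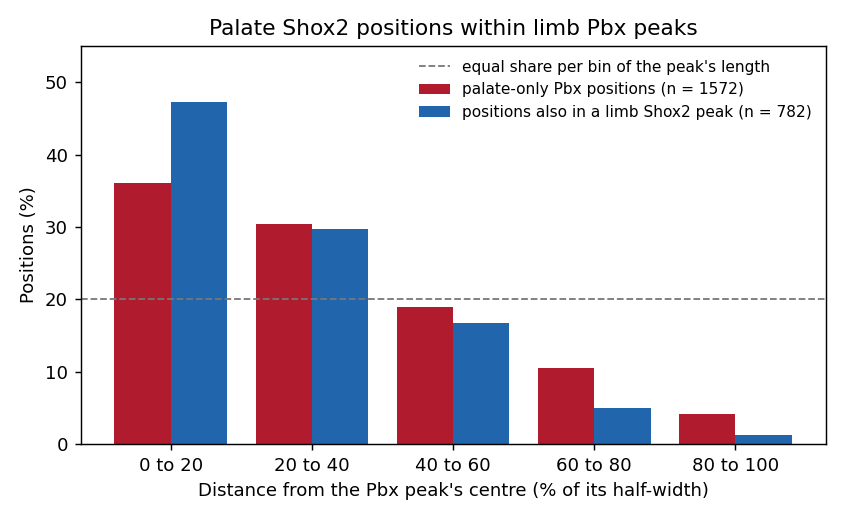
Share of palate Shox2 positions (%, vertical axis) by distance from the centre of the limb Pbx peak around them, in 5 equal bins of the peak's half-width (horizontal axis), for the 1572 palate-only Pbx positions (red) and the 782 positions in all 3 lists (blue). The dashed line at 20% is an equal share per bin. The first bin held 36.1% of palate-only Pbx positions and 47.3% of positions in all 3 lists, and the last bin held 4.13% and 1.28%.

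For positions that were also in a limb Shox2 peak the values were as follows. Of the 782 positions in all 3 lists, 681 (87.1%, 84.6 to 89.3%) were in the central 50%, with a median distance of 136.5 bp to the Pbx centre (125 to 148 bp). The limb Shox2 peaks that separate the classes also decide which part of a Pbx peak each class can occupy, so the gap between these shares is a description of the classes. In Pbx peaks without any limb Shox2 peak the rule takes no ground away, and they hold no position of all 3 lists. The 1290 palate-only Pbx positions there lay in the central 50% in 1018 cases (78.9%, 76.6 to 81.1%), at a median of 148.25 bp from the centre. The 282 positions whose Pbx peak also held a limb Shox2 peak were in the central 50% in 203 cases (72.0%, 66.5 to 76.9%), at a median of 249 bp from the centre of wider peaks.

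The nearest limb Shox2 peak was more than 10000 bp away for most of the palate-only Pbx positions. The median distance to the edge of the nearest one was 21084 bp (interval 18424 to 24186 bp, quartiles 3357 and 74208 bp), and 983 positions (62.5%) were more than 10000 bp away. The median also moved with the limb list, to 13210 bp with limb Shox2 peaks set to 200 bp and to 48368 bp with a limb list as long as the palate list. A smaller group lay close by: 103 positions (6.55%) were within 100 bp of a limb Shox2 edge and 288 (18.3%) within 1000 bp. Palate-only positions off Pbx had a median distance of 26426.5 bp (25499 to 27535 bp), with 2.20% within 100 bp and 7.17% within 1000 bp. More of them, 8122 of 11369 (71.4%), were more than 10000 bp away, so this trait was not particular to the positions on Pbx. Within 100000 bp the shares were 79.4% on Pbx and 80.1% off Pbx.

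The near group was mostly the positions that shared their Pbx peak with a limb Shox2 peak. There were 282 such positions (17.9%, 16.1 to 19.9%), at a median of 151.5 bp from the limb Shox2 edge (quartiles 54 and 379.5 bp). Since palate positions are 1 bp without an extent, the lists do not show whether such a position and the limb peak beside it are separate places. The share depended on the limb list: it was 5.07% with limb Shox2 peaks extended by 500 bp on each side, 29.6% with limb Shox2 peaks set to 200 bp around their centre, and 9.02% with as many limb peaks from the top of the file as the palate list holds. The remaining 1290 positions (82.1%) were in Pbx peaks free of limb Shox2, with a median distance of 32659.5 bp. Only 19 of the 1290 (1.47%) had a limb Shox2 edge within 1000 bp, and 983 (76.2%) had none within 10000 bp. These 1290 were picked for Pbx peaks free of limb Shox2, so short distances were largely removed in advance. The low share within 1000 bp and the larger median follow at least partly from this choice.

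**Figure D2:**
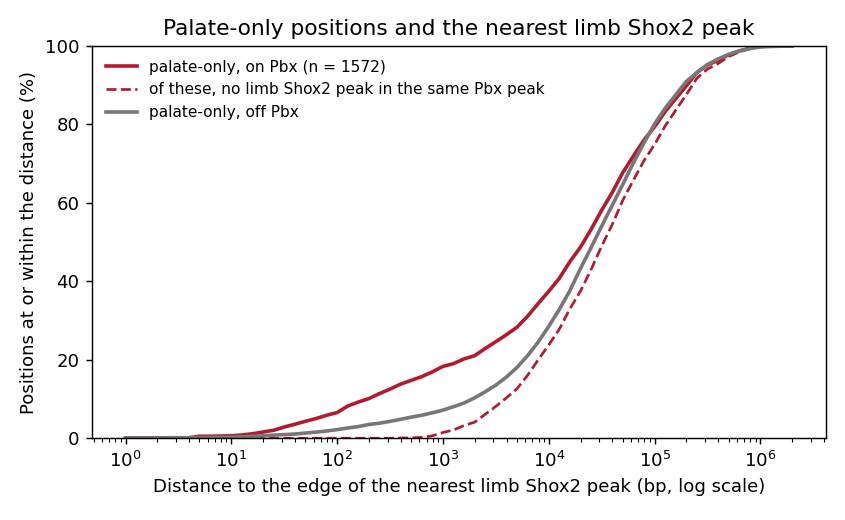
Cumulative share of positions (%, vertical axis) by distance to the edge of the nearest limb Shox2 peak (bp, log axis). The solid red line is the 1572 palate-only positions on Pbx, the dashed red line those of them whose Pbx peak held no limb Shox2 peak, and the grey line the palate-only positions off Pbx. At 1000 bp the lines stand at 18.3%, 1.47% and 7.17%. The positions of the dashed line were picked for Pbx peaks free of limb Shox2, which largely removes short distances in advance.

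The limits of the rule were populated on both sides. The palate-only Pbx position nearest to a limb Shox2 peak, chr16:74413397, was 1 bp outside it, in a Pbx peak of 3004 bp. The next were chr7:90962680 at 2 bp, chr1:158894889 and a position on chromosome 18 at 4 bp each, and chr1:185714475 at 5 bp. Just inside the limb Shox2 edge, and so not members, were chr11:109576916 at 0 bp, chr15:96942490 at 1 bp and chr10:119683625 at 3 bp. Within 50 bp of a limb Shox2 edge there were 68 palate-only Pbx positions outside and 144 positions of all 3 lists inside.

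Few positions lay near the Pbx edge. A margin of 100 bp inside the Pbx edge held 53 of the 1572 positions (3.37%), the nearest being chr7:142962789 at 1 bp. Outside, 40 of the 11369 palate-only positions off Pbx (0.352%) were within 100 bp of a Pbx peak, and the nearest was chr8:27416332 at 5 bp. A further 3 were within 10 bp, namely chr4:152743026 and chr11:19363921 at 7 bp each and chr19:45386649 at 10 bp. The percentages inside and outside have different bases. By count, the 100 bp margins on either side of the Pbx edge were close, with 53 and 40 positions.

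The 1572 positions fell in 1510 limb Pbx peaks, 4.45% of that list, and palate positions of any class fell in 6.62% of it. In 1451 of these peaks there was 1 such position, in 56 there were 2 and in 3 there were 3. The 56 pairs were separated by a median of 510 bp (range 145 to 2495 bp), and the 59 Pbx peaks with more than 1 position had a median width of 1775 bp. The 3 peaks with 3 positions were chr1:94076728-94078115 (1388 bp), chr17:8559680-8561963 (2284 bp) and chr4:84102185-84104212 (2028 bp). In the chromosome 1 peak the positions were 94077096, 94077320 and 94077587, at 22385 to 22876 bp from limb Shox2. The positions in the chromosome 17 peak (8560024, 8560924 and 8561739) were 173154 to 174869 bp from it. In the chromosome 4 peak the positions 84102450, 84102601 and 84103697 were 487, 336 and 22 bp from the edge of a limb Shox2 peak inside the same Pbx peak. In 28 Pbx peaks a palate-only Pbx position and a position of all 3 lists stood together.

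The Pbx peaks that held palate-only Pbx positions were wide. Their median width was 1173.5 bp (interval 1138 to 1211 bp), against 883 bp (878 to 887 bp) for Pbx peaks without a palate position and 1257.5 bp (1200 to 1305 bp) for those with a position of all 3 lists. A wide peak can hold more positions by its length alone, so widths were also read per length. Palate-only Pbx positions stood at 22.6 per Mb of Pbx peak in the narrowest decile of Pbx peaks and at 54.6 per Mb in the widest decile, rising at each step between. Pbx peaks of at least 2 kb are 5.26% of the Pbx list, and 267 palate-only Pbx positions (17.0%, 15.2 to 18.9%) lay in them. For positions of all 3 lists the share was 16.2% (13.8 to 19.0%), which overlaps that interval.

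**Figure D3:**
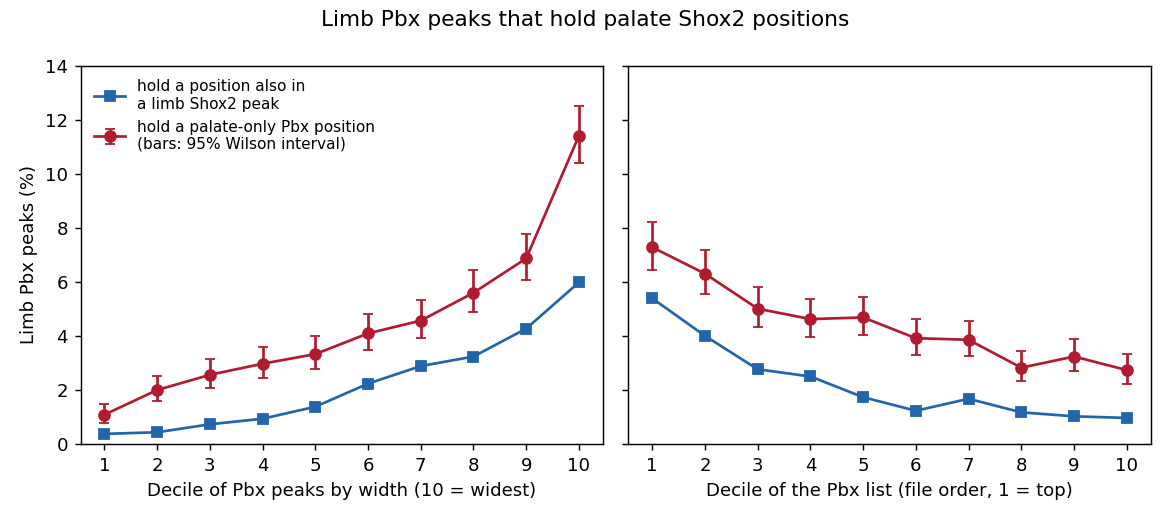
Share of limb Pbx peaks (%, vertical axis) that held a palate-only Pbx position (red, with 95% Wilson intervals) or a position of all 3 lists (blue), by decile of Pbx width (left) and by decile of the Pbx list in file order (right). From the narrowest to the widest decile the red line goes from 1.09 to 11.4%, and from the top to the bottom of the list from 7.28 to 2.74%.

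Palate-only Pbx positions lay along the whole Pbx list. File order is only a possible ranking by strength, which the files do not state. In the first decile of the Pbx list 7.28% of peaks held a palate-only Pbx position, and in the last 2.74% did. Per length of Pbx peak the fall was smaller, from 47.8 to 37.7 positions per Mb. Peaks with a position of all 3 lists fell more steeply, from 5.40 to 0.973%. Such a position needs a limb Shox2 peak in its Pbx peak. The share of Pbx peaks that overlapped limb Shox2 itself fell from 43.1 to 12.9%. The Pbx peak was in the first 50% of the list for 63.0% of palate-only Pbx positions (60.6 to 65.3%) and for 73.5% of positions of all 3 lists (70.3 to 76.5%). Because the rule separates these classes by limb Shox2, the gap between them is a description of the classes.

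Limb Shox2 was also looked for in the whole Pbx peak around each palate-only Pbx position. Of all limb Pbx peaks 23.4% overlapped a limb Shox2 peak, and of the 1510 with a palate-only Pbx position 267 did (17.7%, 15.8 to 19.7%). The share was lower in 10 of 10 deciles of Pbx width and in 9 of 10 deciles of the Pbx list in file order, the exception being the last (15.1% against 12.9%). By width it went from 2.70% (1 of 37 peaks) against 8.67% in the narrowest to 24.8% (96 of 387) against 37.7% in the widest. The rule works in this direction, because a palate position that falls in a limb Shox2 peak is taken out. Counted over every palate position, 1003 of the 2246 Pbx peaks that held one (44.7%) overlapped a limb Shox2 peak.

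Along the palate list the palate-only Pbx positions were spread evenly. The first 50% of the list in file order held 803 of 1572 (51.1%, 48.6 to 53.5%), and the first 10% held 168 (10.7%). Positions of all 3 lists were concentrated at the top, with 71.7% (68.5 to 74.8%) in the first 50% and 26.6% in the first 10%. Positions in a limb Shox2 peak but off Pbx were too, with 67.4% (64.9 to 69.8%) and 20.5%. A place at the top was thus not particular to shared positions on Pbx. Palate-only positions off Pbx leaned the other way, with 46.3% (45.3 to 47.2%) in the first 50%. Within palate-only positions the share on Pbx was therefore higher at the top: 16.5% (14.3 to 18.9%) in the first decile, 10.5% in decile 5 and 11.0% (9.46 to 12.7%) in the last.

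**Figure D4:**
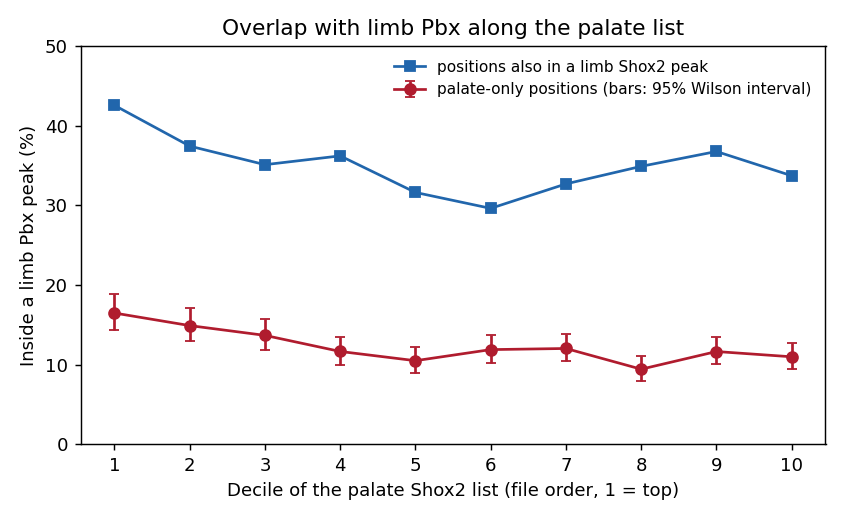
Share of palate Shox2 positions inside a limb Pbx peak (%, vertical axis) by decile of the palate list in file order (horizontal axis), for palate-only positions (red, with 95% Wilson intervals) and positions also in a limb Shox2 peak (blue). The red line goes from 16.5% in the first decile to 11.0% in the last and lies below the blue line, at 42.5 and 33.7%, in 10 of 10 deciles. The deciles split a single contrast, between classes that the rule separates by limb Shox2, so they are not separate results.

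Places in the palate list and in the Pbx list were close to unrelated. Across the 1572 palate-only Pbx positions Spearman's rho between the line in the palate list and the line of the Pbx peak was -0.02, and that with Pbx width was 0.04. The 10 palate-only Pbx positions highest in the palate list lay on 10 different chromosomes. Their Pbx peaks were in the first 50% of the Pbx list in 5 of 10 cases, none held a limb Shox2 peak, and 9 of 10 positions were in the central 50% of the peak. Over all 1572 positions the same shares were 63.0%, 82.1% and 77.7%. Each lies inside the wide interval for 10 positions (23.7 to 76.3%, 72.2 to 100% and 59.6 to 98.2%), so these counts do not set the 10 apart.

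The highest of them was chr13:56963594 at line 18 of the palate list, in the Pbx peak chr13:56963160-56964550 (1391 bp), 261 bp from its centre and 1289 bp from the nearest limb Shox2 edge. The position chr1:93555634 at line 43 was in a Pbx peak of 1715 bp at line 33299 of the Pbx list, near its very end. At line 48 chr16:92248492 was in a Pbx peak of 1791 bp and 5256 bp from limb Shox2. The position at line 49, chr5:120137876, was in the widest Pbx peak of the 10 (chr5:120134869-120138353, 3485 bp), 1265 bp from its centre. It was the single one outside the central 50%.

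The other 6 were in Pbx peaks of 904 to 1051 bp. They were chr12:101619038 at line 77, chr17:45346179 at line 105, chr2:72579294 at line 111, chr11:112907734 at line 127, chr7:103914201 at line 143 and chr8:123474698 at line 151. Of these, the position on chromosome 11 lay closest to the Pbx centre, at 10 bp, and its Pbx peak (chr11:112907231-112908217) stood at line 2796, the highest of the 10. Distances to the nearest limb Shox2 edge among the 6 ran from 2182 bp on chromosome 2 to 70447 bp on chromosome 8.

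The palate-only Pbx positions were found in many parts of the genome, but not evenly. Among 2504 windows of 1 Mb with a peak of some list, 894 contained at least 1 of them. In 515 windows there was 1 position, in 211 there were 2, in 136 there were 3 or 4, and in 32 there were 5 or more. Those 32 windows held 184 of the positions. Whether this grouping goes beyond that of all palate-only positions or of Pbx peaks was not tested. No window held more than 8. The 10 windows with the most are described below. They were picked by this count, and 7 windows tied at 6, of which the first 3 in chromosome order were taken.

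On chromosome 2, 4 of these windows were found. Those with 6 positions were taken from the tied windows by chromosome order, so the number on chromosome 2 follows partly from that choice. Chromosome 2 from 172 to 173 Mb held 8 palate-only positions on Pbx among 29 palate positions, with 51 Pbx peaks and 6 limb Shox2 peaks. None of the 8 had limb Shox2 in its Pbx peak, the nearest limb edge was 22595 bp away, and 2 of the 8 were in the central 50%. Chromosome 2 from 166 to 167 Mb held 6 positions and the most Pbx peaks of the 10 windows, 80, but 2 limb Shox2 peaks, and the nearest limb edge was 114207 bp away. Chromosome 2 from 168 to 169 Mb held 6 positions within 174.5 kb, with 60 Pbx and 8 limb Shox2 peaks. The fourth, from 33 to 34 Mb, held 6 positions among 15 palate positions.

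Windows on chromosomes 9 and 17 also held 8 each, with more limb Shox2 around them. The first (chromosome 9, 61 to 62 Mb) had 61 Pbx and 19 limb Shox2 peaks, and the nearest limb edge was 39 bp from a position. In it the Pbx peaks around the positions were wide, from 1267 to 8121 bp. The second (chromosome 17, 86 to 87 Mb) had 54 Pbx and 20 limb Shox2 peaks and 5 positions of all 3 lists. Its 8 palate-only Pbx positions spanned 261.7 kb, 7 of the 8 were in the central 50%, and 2 shared their Pbx peak with limb Shox2.

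The 4 windows with 7 positions were on chromosomes 1, 5 and 11. Chromosome 1 from 75 to 76 Mb held 31 Pbx and 18 limb Shox2 peaks. Chromosome 5 from 113 to 114 Mb held 58 Pbx and 10 limb Shox2 peaks, and 7 of its 15 palate-only positions (46.7%) were on Pbx. This was the highest such share of the 10 windows, which ran from 28.0 to 46.7%, against 12.1% of all palate-only positions. Picking windows by their count of palate-only Pbx positions favours both a high share and many Pbx peaks. On chromosome 11, the window from 114 to 115 Mb held 45 Pbx and 7 limb Shox2 peaks, and that from 118 to 119 Mb held 50 and 4. In each of the 4 windows 6 of the 7 positions lay in the central 50% of their Pbx peak.

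The neighbourhood was counted for every position. Within 100 kb on either side, palate-only positions on Pbx had a median of 5 other Pbx peaks (quartiles 3 and 9) and palate-only positions off Pbx had 4 (2 and 6). Positions of all 3 lists also had 5 (2 and 8). Limb Shox2 peaks numbered 3 (1 and 6) around the positions on Pbx, 2 (1 and 5) around those off Pbx and 5 (3 and 9) around positions of all 3 lists. No limb Shox2 peak was found within 100 kb of 324 palate-only positions on Pbx (20.6%, 18.7 to 22.7%). Off Pbx the share was close to this, at 19.9% (19.2 to 20.6%), so it was not particular to the positions on Pbx. Of positions of all 3 lists, 7.42% had no other limb Shox2 peak within 100 kb. No other palate position was found within 100 kb of 209 palate-only positions on Pbx (13.3%, 11.7 to 15.1%), against 19.2% (18.4 to 19.9%) of those off Pbx. For positions of all 3 lists this share was 16.6% (14.2 to 19.4%).

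By chromosome, the share of palate-only positions on Pbx ran from 8.18% on chromosome 14 (45 of 550, 6.17 to 10.8%) to 16.0% on chromosome 11 (129 of 808, 13.6 to 18.7%) among the autosomes. Chromosomes 7, 19 and 17 followed chromosome 11 with 15.6%, 15.4% and 15.3%, which its interval includes. At the low end, chromosomes 10 and 3 had 9.04% and 9.29%, inside the interval of chromosome 14. The share on Pbx was higher among positions shared with limb than among palate-only ones on 19 of 19 autosomes. This splits a single contrast of the same 3 lists (36.4% against 12.1% over all positions), so the autosomes are not separate results. The share of palate-only positions on Pbx was higher on chromosomes with more Pbx peaks per Mb (Pearson's r 0.60 and Spearman's rho 0.54 across 19 autosomes, which share the same libraries). More peaks also cover more sequence (1.99% of the span of chromosome 11, 1.22% of chromosome 7). Whether this coverage accounts for any of the relation was not tested. Chromosome 7 went the other way, with the lowest density of the autosomes, 11.6 per Mb, and a share of 15.6%. Chromosome X, with 2.42 Pbx peaks per Mb, held 14 of 109 palate-only positions on Pbx (12.8%, 7.81 to 20.4%).

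**Figure D5:**
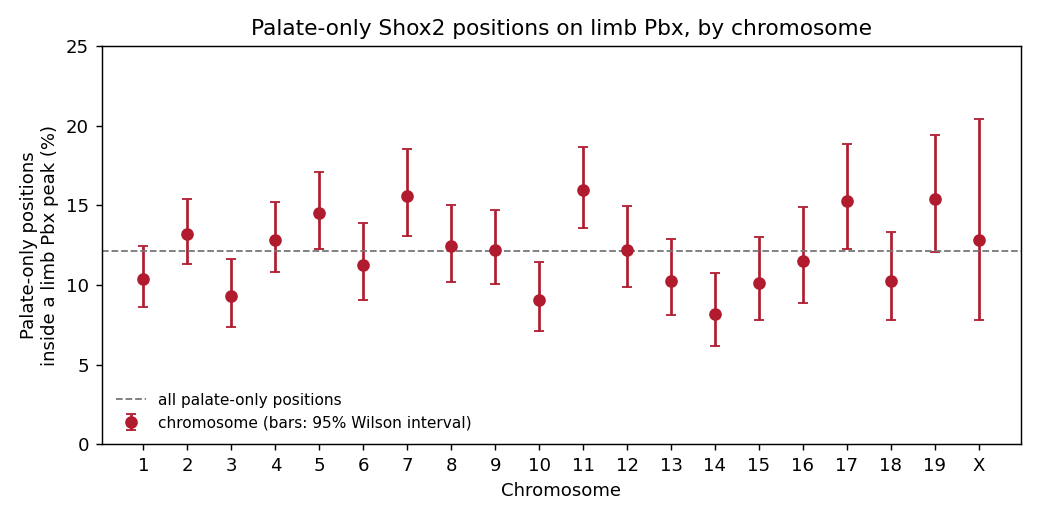
Share of palate-only Shox2 positions inside a limb Pbx peak (%, vertical axis) on each chromosome (horizontal axis), with 95% Wilson intervals as bars and the share over all palate-only positions, 12.1%, as a dashed line. The lowest autosome is chromosome 14 at 8.18% and the highest is chromosome 11 at 16.0%.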

How the data were processed

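Each peak list was used as deposited: chromosome, start and end per peak, with no height, score or count (the other kind of value in the deposited files). The submitters' processing notes name Bowtie, MACS2 and the build mm9. Versions, cutoffs and the peak calling control were not given in the sources used here. Names of unplaced sequences in the deposited files are in the style of mm9. The deposited positions were read as 0-based starts and are printed 1-based. A palate position of 1 bp counted as inside a peak from 1 bp of overlap. Palate positions were classed by the limb Pbx and limb Shox2 peaks around them, and place in the peak, width, file order, distances and counts per 1 Mb window were computed over the whole lists. With 1 library per group no test was run; shares and medians carry 95% intervals. The members and the measures were chosen with earlier results of these data known. Named windows are the 10 with the most members; named positions are the 10 highest in the palate list, those of the 3 Pbx peaks with the most members, and up to 5 nearest to each limit of the rule. Alternatives were other peak extents, shorter lists, autosomes only and windows of 500 kb. The deposited list of co-occupied limb regions was not used. The planned search for promoters, gene lists and motifs was not run, for lack of an mm9 genome. The code was checked on simulated lists. Python 3.11.15, NumPy 2.4.6, pandas 2.3.3, SciPy 1.17.1 and matplotlib 3.10.9 were used.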

Additional observations from a re-analysis of the deposited data

How the results depend on the processing

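Of 88 values recomputed under 10 planned settings, 61 stayed inside the interval of the reported value (counts within 1.5 times of it) and 27 did not. With Pbx peaks set to 200 bp around their centre, 535 positions remained in 440 windows (4.13% of palate-only positions), 6.17% had limb Shox2 in the same Pbx peak, 58.5% had a Pbx peak in the first 50% of its list, 51.6% lay in the central 50% and the median distance to the centre was 48.5 bp; the last 2 follow from the narrower peaks, in which only the middle was kept. The first 50% of the Pbx list gave 990 positions (7.65%), 20.9% with limb Shox2 in the Pbx peak, a median of 187.5 bp to the centre and a median Pbx width of 1336 bp. The first 50% of the palate list gave 803 positions in 576 windows (13.2%), 79.95% of them central. With limb Shox2 peaks extended by 100 bp, 12.3% had limb Shox2 in the Pbx peak and the median distance to its edge was 25169 bp. Extended by 500 bp, these were 5.07% and 29940.5 bp, and 11.1% of palate-only positions were on Pbx. With limb Shox2 peaks set to 200 bp they were 29.6%, 13210 bp and 13.6%, and with as many limb peaks from the top of the file as the palate list holds they were 9.02%, 48368 bp and 12.9%. The share with limb Shox2 in the same Pbx peak and the distance to limb Shox2 thus moved with the extent and length of the limb list, while the central position moved only with the 200 bp Pbx peaks and the shorter palate list (share) or Pbx list (distance). By chromosome, 136 of 179 recomputed shares stayed inside their interval. This count is largely set by the choice of settings. Autosomes only repeats the autosome values unchanged, and narrower or fewer Pbx peaks can only lower a share. Width could not be recomputed for Pbx peaks set to 200 bp, nor a list's share in its own first 50%. With depth unknown, absence from a list may be a matter of its cutoff. No paired analysis was possible because there are no replicates, which also meant that leaving out a library was impossible.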
